A study of Mus musculus with 2 samples.

Results

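Insulin-like growth factors are secreted peptides that act through a receptor tyrosine kinase on the cell surface, and most of the peptide outside cells is held by secreted binding proteins. The 10 genes followed here are the ligand Igf1, the receptors Igf1r and Igf2r, the binding proteins Igfbp2, Igfbp3, Igfbp4, Igfbp5, Igfbp6 and Igfbp7, and the mRNA-binding protein Igf2bp2. They were chosen by name as 10 of the 26100 genes counted in both libraries, and all 10 were found in both. In muscle, the ligands are known to act on both proliferation and differentiation of myoblasts, and the binding proteins can hold ligand away from the receptor or carry it. Igf2bp2 is no binding protein of the peptides. It binds mRNAs in the cytoplasm, that of Igf2 among them.

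The study profiled 2 mouse cultures by droplet single-cell RNA sequencing, in which each captured molecule is counted once by its unique molecular identifier (UMI). The MEF library was made from embryonic fibroblasts kept in MEF medium. The iMPC library was made from induced myogenic progenitor cells, derived from embryonic fibroblasts with MyoD, a regulator of muscle genes, under a treatment the labels call F/R/C, and kept in medium with F/R/C. Both carried the genotype label Tg:Pax7-nGFP/C57BL6;DBA2, the series describes the iMPC culture as 1 stable clone, and neither library has a label of age or passage. Each culture was 1 library, so no test between groups was possible. Intervals given here are exact 95% intervals and cover counting error only, and the spread between cultures is unknown. Those of levels and ratios also leave out the spread between cells. Intervals said to overlap or lie apart describe the summed counts only.

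Cells were grouped by the UMIs of 4 genes that are not members. The MEF library held 6043 cells with at most 20% mitochondrial UMIs, and the iMPC library held 9349 such cells of at least 8036 UMIs. Pax7-positive iMPC cells had at least 1 UMI of Pax7, the satellite cell transcription factor, and none of Myog (2180 cells, median 18730 UMIs). Myog-positive cells had at least 5 UMIs of Myog, the myogenic differentiation factor, and at most 1 of Ckm (1724 cells, median 23858 UMIs). Ckm-positive cells had at least 5 UMIs of Ckm, the muscle creatine kinase (1037 cells, median 42148 UMIs). Dcn-high cells had at least 5 UMIs of Dcn, the fibroblast proteoglycan decorin (553 cells, median 18064 UMIs). Of the Dcn-high cells, 110 were also Pax7-positive, 18 Myog-positive and 18 Ckm-positive, and 4001 iMPC cells were in none of the 4 groups. MEF cells had a median of 18929 UMIs, and 661 of them lay under the minimum used for iMPC cells.

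The labels were compared with marker genes. In MEF all 7 fibroblast markers reached 5 CPM (UMIs of a gene per 1000000 UMIs of the group), at 5858 CPM in sum, and 0 of 5 myoblast markers did. Without Pax7, by which they were chosen, Pax7-positive cells held 4 of 5 satellite cell markers at 5 CPM or more (232 CPM in sum). Myog-positive (132 CPM) and Dcn-high cells (101 CPM) also held 4 of 5, so that count does not set Pax7-positive cells apart from them. MEF and Ckm-positive cells held 2 of 5, but at 198 and 164 CPM in sum, so the sum was only a little lower in MEF. Without Dcn, by which they were chosen, Dcn-high cells held 6 of 6 fibroblast markers at 1701 CPM in sum, against 5590 CPM in MEF and 493 CPM in Pax7-positive cells, and Col1a1 stood at 508 CPM there against 2289 CPM in MEF. They also held the 5 myocyte markers other than Ckm at 3631 CPM in sum, against 715 CPM in Pax7-positive and 41164 CPM in Ckm-positive cells. The part of muscle RNA or of 2 cells in 1 droplet in the Dcn-high values was not tested, and values without doubtful cells are given beside them. Endothelial markers summed to 0.220 to 1.15 CPM and immune markers to 1.36 to 3.49 CPM over all groups, with 0 of 4 genes of either list at 5 CPM. Of the 3 adipocyte markers, 1 reached 5 CPM in Dcn-high cells and 0 elsewhere. Smooth muscle markers summed to 9884 CPM in MEF and to 1051 to 3329 CPM in the iMPC groups. Of these 5 genes, 4 reached 5 CPM in MEF and Dcn-high cells and 3 in the other groups. Whether any cells were of a smooth muscle type was not tested. The kept cells of both libraries shared 16 barcodes.

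Levels are UMIs of a gene summed over the cells of a group, relative to all UMIs of that group, in CPM. A gene was counted as higher or lower in a comparison at a ratio of at least 2-fold with 5 CPM or more on the higher side, which is a description of size and no test. In iMPC against MEF, 3 of the 10 genes were higher (Igfbp2, Igfbp3 and Igfbp5) and 1 was lower (Igfbp6). Over all 10277 genes tested, 15.5% were higher and 21.9% were lower. The median log2 ratio was 0.26 over the members and -0.17 over all genes tested. When the libraries were scaled to the median gene instead of to their totals, all log2 ratios of this comparison were higher by 0.16 and Igf2r changed sign (-0.09 to 0.07). Igf2r is therefore given no direction between the libraries.

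**Figure D1:**
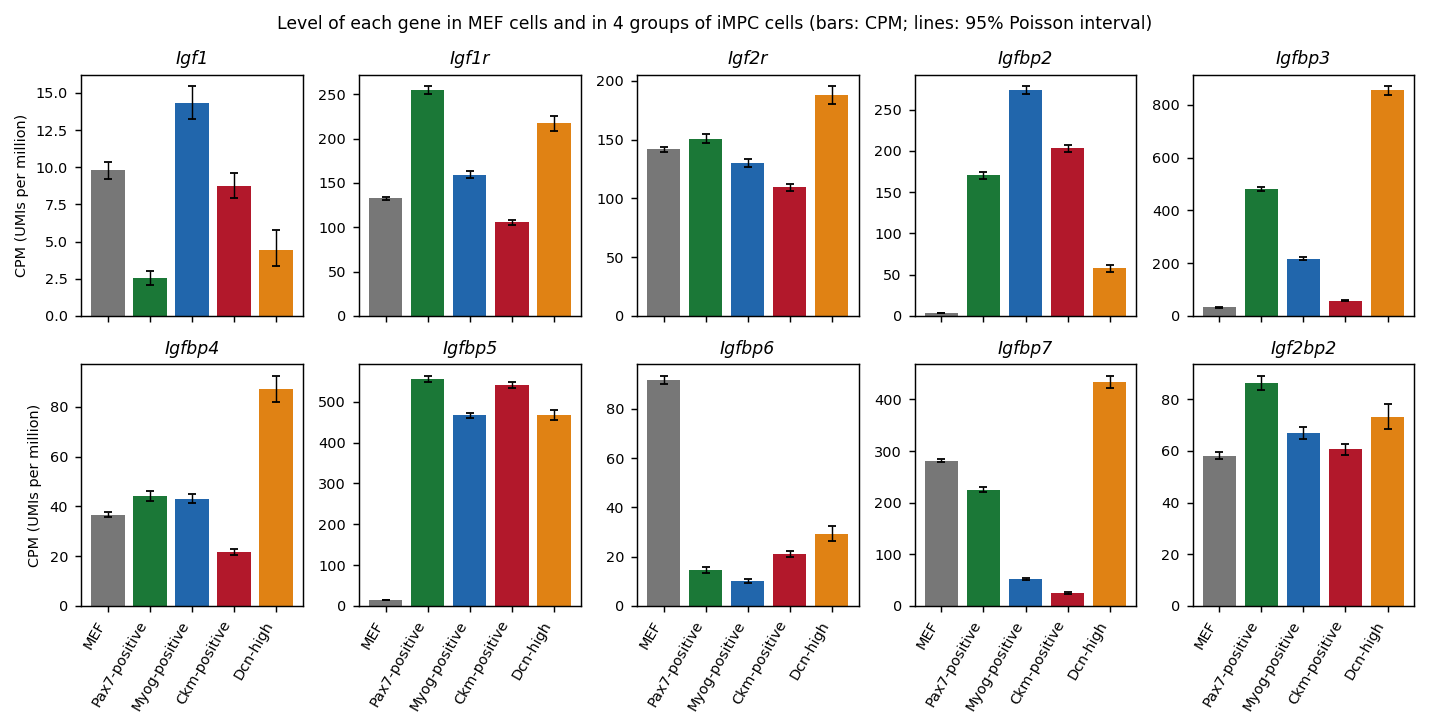
Level of each of the 10 genes (CPM, linear axes that differ between panels) in MEF cells and in the 4 groups of iMPC cells. Bars are levels of 1 library or of 1 group of its cells, and black lines are exact 95% Poisson intervals. Igfbp5 stood at 467 to 556 CPM in the iMPC groups and 14.2 CPM in MEF, while Igfbp6 was highest in MEF at 91.6 CPM.

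The 3 genes that were higher in iMPC are shown with the sequence around their start sites, because they stood above MEF in each of the 4 iMPC groups, and Igf1 because it was highest in Myog-positive cells. Igfbp2 (ENSMUSG00000039323) lies on chromosome 1 at 72824503 to 72852474 on the plus strand, and Igfbp5 (ENSMUSG00000026185) lies next to it in the opposite direction at 72857932 to 72874884. Igfbp3 (ENSMUSG00000020427) lies on chromosome 11 at 7206086 to 7213923 on the minus strand. Positions are those of GENCODE M21 on GRCm38. The windows below run from 250 bases before to 50 bases after a RefSeq start site on GRCm38.p6, are written 5′ to 3′ along the gene, and lie at chr10:87860861-87861160 (plus strand), chr1:72824230-72824529 (plus strand), chr11:7213874-7214173 (minus strand) and chr1:72874816-72875115 (minus strand). The RefSeq start site of Igf1 lies 2846 bases from the start of the gene in GENCODE, inside it, those of Igfbp2 and Igfbp5 lie 23 and 19 bases away, and that of Igfbp3 is the same. The stretches looked up from the end of the Igfbp2 window reach before the GENCODE start of the gene, and were not found in a reference transcript. This is therefore no sign of a mismatch. For the other 3 windows a stretch from the end was found. Capitals mark CANNTG, the E-box pattern, of which factors of the MyoD family are known to bind some forms. The pattern is met on both strands alike, but a single match need not read the same on both.
Igf1: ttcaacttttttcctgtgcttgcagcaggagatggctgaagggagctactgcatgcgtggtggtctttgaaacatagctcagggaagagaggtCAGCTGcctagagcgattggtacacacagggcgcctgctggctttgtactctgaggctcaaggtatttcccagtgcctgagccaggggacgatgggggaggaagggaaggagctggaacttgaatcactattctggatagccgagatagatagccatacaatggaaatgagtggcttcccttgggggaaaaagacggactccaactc
Igfbp2: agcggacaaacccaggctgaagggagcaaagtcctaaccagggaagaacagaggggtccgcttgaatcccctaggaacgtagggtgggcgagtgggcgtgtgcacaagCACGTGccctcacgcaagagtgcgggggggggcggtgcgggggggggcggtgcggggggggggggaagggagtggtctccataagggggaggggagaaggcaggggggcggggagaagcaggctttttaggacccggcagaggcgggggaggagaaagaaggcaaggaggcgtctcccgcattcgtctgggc
Igfbp3: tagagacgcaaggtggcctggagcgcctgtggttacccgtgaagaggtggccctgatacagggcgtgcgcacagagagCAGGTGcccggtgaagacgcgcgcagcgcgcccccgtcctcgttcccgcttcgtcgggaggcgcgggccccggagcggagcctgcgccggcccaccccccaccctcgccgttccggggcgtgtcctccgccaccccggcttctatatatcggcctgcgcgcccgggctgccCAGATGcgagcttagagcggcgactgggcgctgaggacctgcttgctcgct
Igfbp5: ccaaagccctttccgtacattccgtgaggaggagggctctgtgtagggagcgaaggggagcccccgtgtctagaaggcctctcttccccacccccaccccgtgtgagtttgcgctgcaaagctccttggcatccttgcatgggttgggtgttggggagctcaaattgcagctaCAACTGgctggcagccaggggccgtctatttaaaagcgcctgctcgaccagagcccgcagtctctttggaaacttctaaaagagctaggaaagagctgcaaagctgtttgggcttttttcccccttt
CANNTG was found 1 time each in the windows of Igf1, Igfbp2 and Igfbp5 and 2 times in that of Igfbp3. Igfbp2 has a second window with 2 matches, and of the 11 windows of the 10 members 8 held CANNTG. Of 32851 windows of this length in the table, 72.3% held it and the median was 1. CAGCTG, a form of it that reads the same on both strands, was the match in the Igf1 window, was in 1 of the 11 windows and in 16.3% of all windows. A match is a description of these letters only.

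Igfbp2 encodes a secreted binding protein that holds both ligands. It stood at 3.43 CPM (3.10 to 3.78) in MEF, from 405 UMIs. In the iMPC culture it stood at 170 CPM in Pax7-positive, 274 CPM in Myog-positive, 203 CPM in Ckm-positive and 57.7 CPM in Dcn-high cells. Every iMPC group was thus above MEF, and Myog-positive cells were highest, with no overlap of intervals between neighbours in this order. Between the whole libraries the log2 ratio was 5.87 (5.73 to 6.01). After thinning each cell to 5000 UMIs, 1.30% of MEF cells and 60.7% (58.3% to 63.0%) of Myog-positive cells had a UMI (2.86% and 87.5% without thinning). The highest count in 1 MEF cell was 17 UMIs.

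Igfbp5 encodes a binding protein that myoblasts are known to secrete as they differentiate. In MEF it stood at 14.2 CPM (13.5 to 14.9), and 6.14% of cells had a UMI. The level in iMPC was 556 CPM (549 to 563) in Pax7-positive, 467 CPM (461 to 473) in Myog-positive, 541 CPM (534 to 547) in Ckm-positive and 468 CPM (456 to 481) in Dcn-high cells. These 4 levels differed by 1.19-fold at most, and the intervals of Dcn-high and Myog-positive cells overlapped. The whole libraries differed by a log2 ratio of 5.20 (5.13 to 5.27). Cells differed more than the group levels did: in Dcn-high cells 10% of the cells held 58.2% of the Igfbp5 UMIs, against 32.3% in Pax7-positive cells. At 5000 UMIs per cell, 51.5% of Dcn-high cells and 78.4% of Pax7-positive cells had a UMI, and 3.37% of MEF cells did.

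Igfbp3 encodes the main carrier of the peptides in blood, and is also made by connective tissue cells. It stood at 32.2 CPM (31.1 to 33.2) in MEF. In iMPC it stood at 854 CPM (838 to 871) in Dcn-high, 481 CPM (475 to 488) in Pax7-positive, 217 CPM (213 to 222) in Myog-positive and 57.2 CPM (55.1 to 59.4) in Ckm-positive cells. The intervals of all 5 levels lay apart from each other, with MEF lowest. The log2 ratio between the libraries was 3.29 (3.24 to 3.34). A UMI was found in 83.4% of Dcn-high, 71.0% of Pax7-positive, 17.6% of Ckm-positive and 8.82% of MEF cells at 5000 UMIs per cell (95.3%, 92.8%, 57.2% and 18.9% without thinning). At that depth 5 or more UMIs were held by 40.9% of Dcn-high and 18.5% of Pax7-positive cells, against 0.538% of MEF cells.

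**Figure D2:**
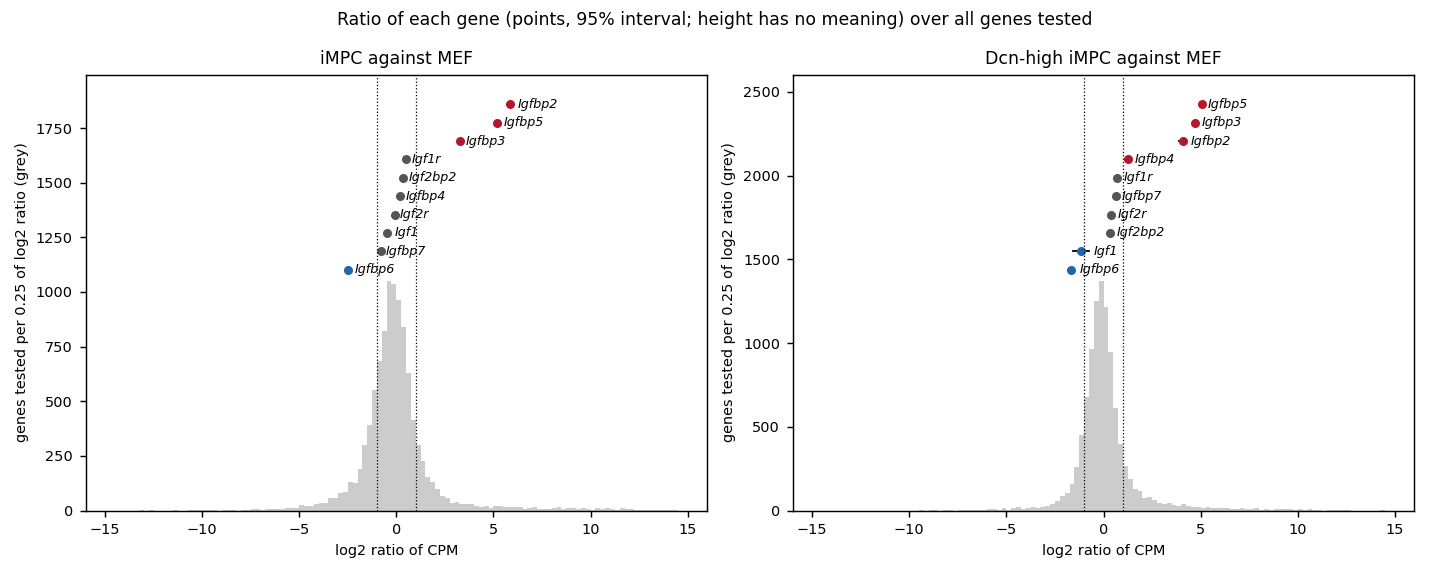
Log2 ratios of CPM for the 10 genes (points with exact 95% intervals, their height without meaning) over the distribution of all genes tested (grey) in iMPC against MEF and in Dcn-high iMPC cells against MEF. Dotted lines mark 2-fold, red points are higher, blue points are lower, and Igfbp2, Igfbp3 and Igfbp5 lie to the right of it in both panels.

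Igfbp6 (ENSMUSG00000023046, chromosome 15, 102144362 to 102149511) encodes a binding protein that prefers the ligand Igf2. In the comparison of the libraries it was the only member past 2-fold towards MEF, at 91.6 CPM (89.9 to 93.3) there against 16.5 CPM (15.99 to 17.04) in iMPC, a log2 ratio of -2.47 (-2.53 to -2.42). In iMPC it stood at 29.2 CPM in Dcn-high, 21.1 CPM in Ckm-positive, 14.6 CPM in Pax7-positive and 10.0 CPM in Myog-positive cells. A UMI was found in 30.1% of MEF cells and in 2.67% to 10.8% of cells of the iMPC groups at 5000 UMIs (55.8% and 14.7% to 38.8% without thinning). The intervals of the 5 levels did not overlap. In cells without UMIs of the proliferation genes Mki67 and Top2a, Ckm-positive cells stood at 21.8 CPM and Pax7-positive cells at 23.3 CPM, with overlapping intervals. The order of these 2 groups is therefore given no direction.

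Igfbp7 (ENSMUSG00000036256, chromosome 5, 77349240 to 77408041) encodes a related secreted protein that binds the peptides weakly and is laid down with basement membrane. It stood at 281 CPM (278 to 284) in MEF and 161 CPM (159 to 163) in iMPC, a log2 ratio of -0.80 that stayed within 2-fold. Within iMPC it ran from 434 CPM (422 to 446) in Dcn-high and 225 CPM (221 to 229) in Pax7-positive cells to 52.4 CPM in Myog-positive and 24.99 CPM (23.6 to 26.4) in Ckm-positive cells. The intervals of all 5 levels lay apart. The iMPC groups spanned a wider range than the 2 library levels, but the iMPC library level pools these groups with other cells. MEF was not split into such groups. The gene overlaps Polr2b on the other strand, and reads of the 2 genes are told apart only if the counting used strand, which is not given in the sources used here.

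Igfbp4 (ENSMUSG00000017493, chromosome 11, 99041244 to 99054392) encodes a binding protein that releases ligand when the protease Pappa cuts it. It stood at 36.6 CPM (35.6 to 37.7) in MEF and 41.7 CPM (40.8 to 42.5) in iMPC, within 2-fold. In iMPC, Dcn-high cells held 87.0 CPM (81.8 to 92.4), Pax7-positive cells 44.0 CPM and Myog-positive cells 43.1 CPM, with overlapping intervals for these last groups, and Ckm-positive cells held 21.6 CPM. The UMIs were concentrated, with 10% of MEF cells holding 78.5% of them.

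Igf1 (ENSMUSG00000020053, chromosome 10, 87858265 to 87937042), the ligand, was the sparsest member in iMPC, with 1656 UMIs over 9349 cells. It stood at 9.78 CPM (9.23 to 10.4) in MEF, 2.52 CPM (2.07 to 3.04) in Pax7-positive, 14.3 CPM (13.3 to 15.5) in Myog-positive, 8.71 CPM (7.90 to 9.58) in Ckm-positive and 4.44 CPM (3.33 to 5.79) in Dcn-high cells. Myog-positive cells were highest and Pax7-positive cells lowest, while MEF and Ckm-positive cells had overlapping intervals. Igf1 and Igf2r overlap the antisense genes Igf1os and Airn, which are not among the genes counted. The library levels of 7.12 CPM in iMPC and 9.78 CPM in MEF lay within 2-fold (log2 ratio -0.46). At 5000 UMIs a UMI was seen in 7.19% (6.02% to 8.52%) of Myog-positive and 1.19% (0.781% to 1.74%) of Pax7-positive cells, and without thinning in 21.2% and 4.50%.

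The receptors varied less. Igf1r (ENSMUSG00000005533, chromosome 7, 67952827 to 68233668) encodes the signalling receptor of the peptides. It stood at 133 CPM (131 to 135) in MEF, 255 CPM (250 to 259) in Pax7-positive, 217 CPM (209 to 226) in Dcn-high, 159 CPM (156 to 163) in Myog-positive and 106 CPM (103 to 108) in Ckm-positive cells. Igf2r (ENSMUSG00000023830, chromosome 17, 12682406 to 12769664) encodes the receptor that takes Igf2 into the cell for breakdown and also carries lysosomal enzymes. Its levels were 142 CPM in MEF, 188 CPM in Dcn-high, 151 CPM in Pax7-positive, 130 CPM in Myog-positive and 109 CPM in Ckm-positive cells. Of the 7 comparisons reported here, Igf1r passed 2-fold only between Ckm-positive and Pax7-positive cells, and Igf2r in none. Both were lowest in Ckm-positive cells. Between Ckm-positive and Pax7-positive cells, the ends of the muscle order described below, Igf1r stood at a log2 ratio of -1.27 (-1.32 to -1.22) and Igf2r at -0.46. Relative to the median gene of that pair, which stood at -0.36, Igf1r was within 2-fold at -0.91 and Igf2r stood at -0.10.

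Igf2bp2 (ENSMUSG00000033581, chromosome 16, 22059009 to 22163299) ranged from 58.2 CPM (56.8 to 59.6) in MEF to 86.3 CPM (83.5 to 89.0) in Pax7-positive cells. Dcn-high cells held 73.1 CPM, Myog-positive cells 67.0 CPM and Ckm-positive cells 60.6 CPM. The intervals of Dcn-high and Myog-positive cells overlapped, as did those of Ckm-positive and MEF cells. In none of the 5 comparisons did Igf2bp2 pass 2-fold.

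**Figure D3:**
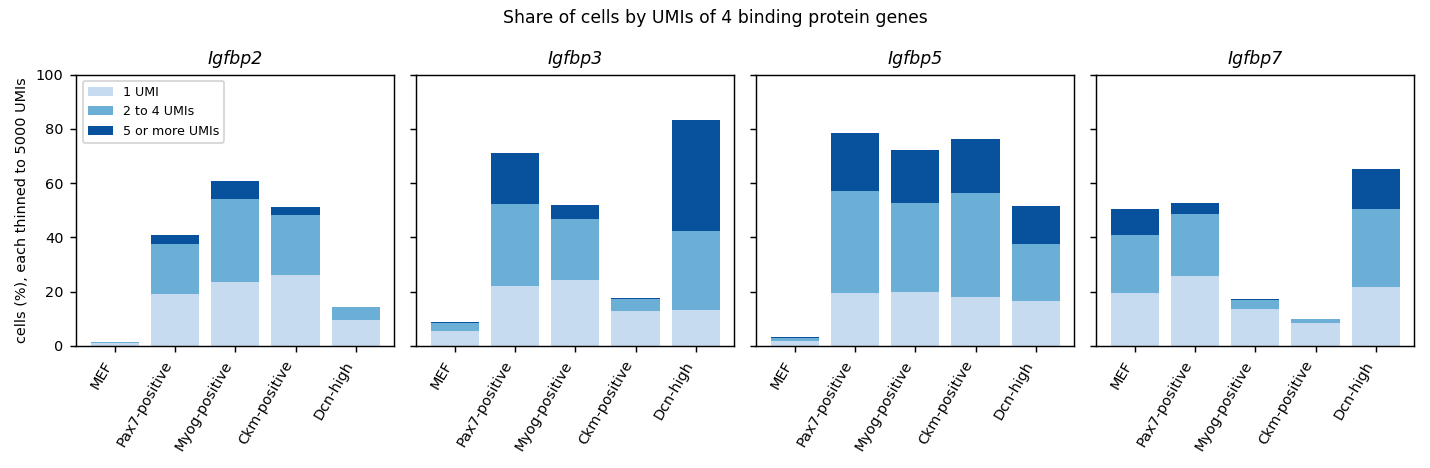
Share of cells (%) with 1, 2 to 4 or 5 or more UMIs of Igfbp2, Igfbp3, Igfbp5 and Igfbp7 after thinning each cell to 5000 UMIs, in MEF cells and in 4 groups of iMPC cells. Igfbp5 UMIs were seen in 51.5% to 78.4% of cells of the iMPC groups and 3.37% of MEF cells.

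Droplets also hold free RNA, which gives UMIs in cells that do not express a gene. In iMPC barcodes of 200 to 600 UMIs, taken as droplets without a cell, the members stood at 5.46 CPM (Igf1) to 280 CPM (Igfbp5). All were below their level over all kept iMPC cells, but not below that of every group. Igfbp3 (162 CPM) and Igfbp7 (54.0 CPM) stood above Ckm-positive cells (57.2 and 24.99 CPM). Igfbp2 (111 CPM) stood above Dcn-high cells (57.7 CPM), and Igf1 above Pax7-positive cells (2.52 CPM). Igfbp4 and Igfbp6 were also above at least 1 group, while Igf1r, Igf2r, Igfbp5 and Igf2bp2 were below all 4. With 430 UMIs of such RNA in every droplet, the share of cells with a UMI at 5000 UMIs would be 3.28% for Igfbp5 in Dcn-high, 0.825% for Igfbp3 and 0.275% for Igfbp7 in Ckm-positive, and 0.0626% for Igf1 in Pax7-positive cells. The shares measured there were 51.5%, 17.6%, 9.84% and 1.19%. Barcodes below the cells were not analysed here for MEF.

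The first step of differentiation was followed from Pax7-positive to Myog-positive cells. Igf1 was higher at the later stage, with a log2 ratio of 2.51 (2.21 to 2.81), and Igfbp3 (-1.15, -1.18 to -1.11) and Igfbp7 (-2.10, -2.17 to -2.04) were lower. These are 1 and 2 of 10 members, where 7.02% and 12.8% of 9660 genes tested were higher and lower. Igfbp2 stood at 274 against 170 CPM (log2 ratio 0.69) and Igf1r at 159 against 255 CPM (-0.68), both within 2-fold. The 2 groups also differed in cycling: 53.9% of Pax7-positive and 40.1% of Myog-positive cells had 2 or more UMIs of the proliferation genes Mki67 and Top2a. In cells with none of these UMIs, a comparison added after the data had been seen, the log2 ratios were -2.09 for Igfbp3, -3.15 for Igfbp7 and -1.06 for Igf1r, so the first 2 moved by over 1.5 times and Igf1r passed 2-fold.

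From Myog-positive to Ckm-positive cells, Igfbp3 was lower again (-1.92, -1.99 to -1.86), as was Igfbp7 (-1.07, -1.17 to -0.97), and Igfbp6 was higher (1.07, 0.91 to 1.23). Over 9125 genes tested, 6.52% were higher and 15.1% lower. Without Ckm, by which the groups were chosen, myocyte markers summed to 41164 CPM in Ckm-positive and 11245 CPM in Myog-positive cells. The median gene stood at a log2 ratio of -0.20 between these groups. Relative to that median Igfbp3 stood at -1.72 and Igfbp6 at 1.27, while Igfbp7 stood at -0.87 and so within 2-fold. Igfbp7 also came within 2-fold at -0.99 with at most 10% mitochondrial UMIs, at -0.95 with thinned counts and at -0.68 in cells without Mki67 or Top2a UMIs, and reached -1.67 with likely doublets removed. Igfbp6 came within 2-fold at 0.98 with a total that left out mitochondrial and ribosomal protein genes, at 0.95 with stricter groups and at 0.81 in cells without Mki67 or Top2a UMIs. Igfbp4 stood just inside 2-fold at -0.995 (21.6 against 43.1 CPM) and passed it under 7 alternatives, as far as -1.44 with stricter groups. With those groups Igf1 also passed it, at -1.52 against -0.72, and in cells without Mki67 or Top2a UMIs it stood at -1.27. Cycling cells made up 40.1% of Myog-positive and 11.6% of Ckm-positive cells.

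Between the ends of this order, Ckm-positive against Pax7-positive cells, 1 member was higher and 4 were lower (11.9% and 31.7% of 9837 genes). Igf1 stood at 1.79 (1.48 to 2.10). The lower ones were Igfbp7 (-3.17, -3.26 to -3.08), Igfbp3 (-3.07, -3.13 to -3.01), Igf1r (-1.27) and Igfbp4 (-1.03). Relative to the median gene, 1 member was higher and 2 were lower, since Igf1r (-0.91) and Igfbp4 (-0.67) came within 2-fold while Igfbp7 stood at -2.81 and Igfbp3 at -2.71. Igfbp4 was also within 2-fold at -0.88 with a minimum of 16000 UMIs, at -0.94 with at most 10% mitochondrial UMIs and at -0.88 with thinned counts. Igf1 moved to 1.04 with stricter groups. Igfbp7 and Igfbp3 moved to -4.16 and -3.81 with doublets removed and to -3.83 and -4.09 in cells without Mki67 or Top2a UMIs. Igfbp5 (541 against 556 CPM) has no direction, at -0.04 by the totals and 0.32 relative to the median gene.

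A finer order of 6 steps used the same 3 genes and is shown in the plot of levels by step. Igf1 stood at 2.52 CPM in the first step, 3.42 CPM in cells with 1 to 4 Myog UMIs, 14.3 CPM with 5 or more, 13.7 CPM with 2 to 4 Ckm UMIs, 9.12 CPM with 5 to 49 and 4.33 CPM (2.57 to 6.85) with 50 or more. It was thus high in the middle steps and low at both ends. Igfbp5 took the opposite shape, with 593 CPM (587 to 600) at 1 to 4 Myog UMIs, 402 CPM (393 to 412) at 2 to 4 Ckm UMIs and 821 CPM (794 to 849) at 50 or more Ckm UMIs. The last step held only 68 cells, with a median of 55640 UMIs each.

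Igfbp3 was lower at each step than at the one before, and Igfbp7 from the third step on. Igfbp3 stood at 481, 444, 217, 107, 58.8 and 39.9 CPM. Igfbp7 stood at 225 and 240 CPM in the first 2 steps and at 52.4, 43.8, 25.8 and 16.8 CPM in the others, so most of its difference lay between 1 to 4 and 5 or more Myog UMIs. Igfbp2 peaked at 274 CPM in cells with 5 or more Myog UMIs and stood at 177 CPM (164 to 190) in the last step. Igf1r ran from 255 CPM to 105 CPM at 5 to 49 Ckm UMIs, and Igf2r from 151 to 109 CPM. The last 2 steps had overlapping intervals for both receptors and for Igf2bp2.

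**Figure D4:**
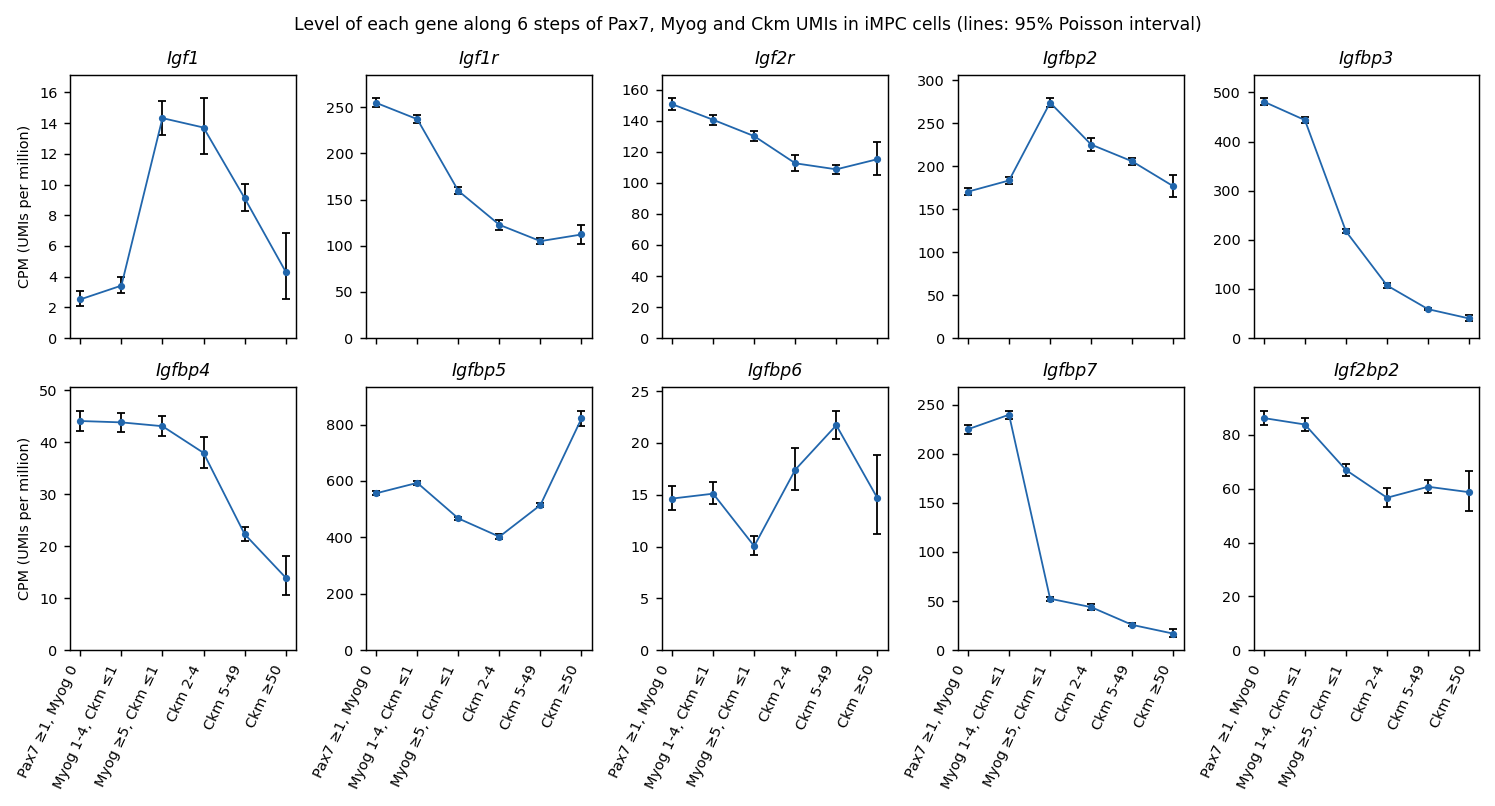
Level of each gene (CPM, axes from 0 that differ between panels) in 6 groups of iMPC cells ordered by their UMIs of Pax7, Myog and Ckm, with exact 95% Poisson intervals. Igf1 and Igfbp2 were highest in the third step at 14.3 and 274 CPM, Igfbp5 in the last at 821 CPM, and Igfbp3 in the first at 481 CPM.

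Dcn-high cells were compared with Pax7-positive cells of the same culture. Igfbp2 was lower in Dcn-high cells (57.7 against 170 CPM, log2 ratio -1.56, -1.67 to -1.45), and 0 of the 9 members tested was higher. Of 9945 genes tested, 11.7% were higher and 6.9% lower. Igfbp3, Igfbp4, Igfbp6 and Igfbp7 lay just inside 2-fold, at log2 ratios of 0.83, 0.98, 0.995 and 0.95, and all 4 passed it, at 1.02, 1.19, 1.096 and 1.20, with the cells of the highest doublet scores removed. Leaving out cells that met 2 group definitions gave 0.72, 1.26, 1.16 and 1.25. Igfbp2 then stood at -2.30, and at -2.48 with doublets removed. In Dcn-high cells 10% of the cells held 78.0% of the Igfbp2 UMIs. Only 16.3% of Dcn-high cells were cycling, against 53.9% of Pax7-positive cells, and in cells without Mki67 or Top2a UMIs Igfbp3 stood at 0.36, Igfbp6 at 0.42 and Igfbp2 at -1.59.

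Against MEF, Dcn-high cells were higher in 4 members and lower in 2. Of 10283 genes tested, 14.3% were higher and 13.4% lower. The log2 ratios were 5.04 (4.96 to 5.12) for Igfbp5, 4.73 (4.68 to 4.79) for Igfbp3, 4.07 (3.89 to 4.25) for Igfbp2 and 1.25 (1.15 to 1.34) for Igfbp4. Igfbp6 stood at -1.65 (-1.81 to -1.50) and Igf1 at -1.14 (-1.56 to -0.75). With doublets removed Igfbp2 moved to 3.12, and with cells of 2 groups left out to 3.39. Igfbp5 ranged only from 4.67 to 5.18 and Igfbp3 from 4.44 to 4.94 over 13 alternatives. Igf1 rests on 54 UMIs in Dcn-high cells and stood at -0.94 after thinning. Pax7-positive cells against MEF gave 3 higher members, Igfbp2 (5.63), Igfbp5 (5.29) and Igfbp3 (3.90), and 2 lower, Igfbp6 (-2.65) and Igf1 (-1.96), where 15.8% and 19.9% of 10221 genes were higher and lower. Igf1r lay just inside 2-fold there, at 0.94, and passed it under 5 alternatives, as far as 1.13 in cells without Mki67 or Top2a UMIs. In those cells Igfbp6 stood at -1.98. These comparisons and that of the whole libraries share the MEF cells.

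Cycling and other cells were compared within 2 groups. In Pax7-positive cells, 1176 had 2 or more UMIs of Mki67 and Top2a (median 22217 UMIs in all) and 797 had none (median 14832). Igfbp3 stood at 333 CPM in the former and 751 CPM in the latter, a log2 ratio of -1.17 (-1.21 to -1.13), and Igfbp6 at 9.93 against 23.3 CPM, -1.23 (-1.47 to -0.99). Both were lower in cycling cells, as 7% of 9638 genes tested were, while 7.24% were higher. In MEF, 559 cells were cycling by this count and 5098 had none. Igfbp3 stood at 14.9 against 34.8 CPM there, -1.22 (-1.43 to -1.02), and Igfbp5 at 6.67 against 15.6 CPM, -1.22 (-1.54 to -0.92). Lower genes made up 1.25% and higher genes 7.31% of 9748 genes tested in MEF. Igfbp5 in Pax7-positive cells differed less, at 508 against 655 CPM (-0.37), and whether the ratios differ between the cultures cannot be tested with 1 library each.

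Genes whose counts went with those of a member were looked for over cells of 1 library thinned to 5000 UMIs, by Pearson's r of log2(1 + UMIs) among genes of at least 20 CPM, which left out Igf1, Igfbp6 in iMPC, and Igfbp2 and Igfbp5 in MEF. These r are descriptions over cells that share a library and its free RNA. Over 9349 iMPC cells Igfbp7 went most with the basement membrane collagens Col4a1 (0.56) and Col4a2 (0.50) and with Col1a1 (0.49). Igfbp3 went with Spp1, which encodes osteopontin (0.46), Col3a1 (0.44) and Col18a1 (0.41), and Igf1r with Col3a1 (0.22), Sparc (0.22) and Col18a1 (0.21). For Igfbp2, Igfbp4, Igfbp5, Igf2r and Igf2bp2 no gene reached 0.2 in iMPC. Over 5759 MEF cells Igfbp7 went with Serpinf1 (0.37), Bgn (0.36) and Ptn (0.33), Igfbp4 with Mgp (0.38) and Spp1 (0.21), Igfbp3 with Stmn2 (0.24), Igf1r with Thbs1 (0.21), and Igf2r with Mt1 (0.22), Ctsb (0.21) and Aebp1 (0.21). Among the members themselves no pair passed 0.2 in either library. The highest in iMPC were Igfbp4 with Igfbp7 (0.18) and Igf1r with Igfbp3 (0.17), and Igfbp2 and Igfbp7 stood at -0.15. In MEF Igfbp6 with Igfbp7 and Igfbp4 with Igfbp7 stood at 0.13 each.

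The other genes of the pathway were taken from a list of 37, of which 30 reached 5 CPM in the higher library. In iMPC against MEF 5 were higher and 6 lower, with a median log2 ratio of -0.30 (15.5% and 21.9% of all genes). The higher ones were the ligand Igf2 (33.6 against 0.415 CPM, log2 ratio 6.34, 5.93 to 6.77), Stc2 (5.09) and Stc1 (2.89), which encode stanniocalcins that can inhibit the protease Pappa, the transcription factor Foxo1 (1.24) and the kinase Akt2 (1.12). The lower ones were Pappa itself (1.43 against 10.6 CPM, -2.89), the kinase Akt1 (-1.45), the adaptor Shc1 (-1.31), the secreted protease Htra1 (-1.30), Tsc2, an inhibitor of mTOR signalling (-1.21), and the mRNA-binding Igf2bp3 (-1.13). Igf2 stood at 26.9 CPM in Pax7-positive, 39.6 CPM in Myog-positive, 45.5 CPM in Ckm-positive and 7.80 CPM in Dcn-high cells. The binding protein Igfbp1 and the carrier Igfals had 0 UMIs in MEF and at most 0.0129 CPM in iMPC.

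Within iMPC, Myog-positive against Pax7-positive cells gave 1 higher gene of the 29 tested, Akt2 (1.14), and 4 lower ones, among them Htra1 (-1.54), Stc1 (-1.41) and Shc1 (-1.12), where 7.02% and 12.8% of all genes were higher and lower. From Myog-positive to Ckm-positive cells 0 of 29 were higher and 5 were lower, from the adaptor Irs2 (-1.79) to Igf2bp1 (-1.01), close to the 15.1% of all genes that were lower (6.52% higher). Dcn-high against Pax7-positive cells gave 6 higher of 30, among them Pappa (2.36), Htra1 (1.85) and Stc1 (1.09), and 2 lower, Igf2 (-1.78) and Igf2bp3 (-1.25), where 11.7% and 6.9% of all genes were higher and lower. Dcn-high cells against MEF gave 4 higher of 30, with Stc1 (4.58), Igf2 (4.23) and Stc2 (4.23) ahead of Foxo1 (1.101), and 3 lower, Igf2bp3 (-2.11), Akt1 (-1.65) and Igf2bp1 (-1.13), shares close to the 14.3% and 13.4% of all genes. Pappa in Dcn-high cells, at 6.16 CPM, lay within 2-fold of its MEF level of 10.6 CPM.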

How the data were processed

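The 10x Genomics libraries were 1 of MEF and 1 of iMPC cells. Per the file headers, the authors' deposited files are Cell Ranger output with unnormalised UMI counts. The submitters' processing notes give Cell Ranger 4.0 and also name Seurat 3.2.3 and GRCm38.p6. Counts were used as deposited. The 26100 genes in both matrices were kept, and 24 genes listed only for MEF (0.209% of its UMIs) were dropped. The iMPC matrix lists 6794880 barcodes without a call of cells. The UMI minimum of 8036 is 10% of the 99th percentile of its top 10000 barcodes. The protocol in the labels aims at about 10000 cells, and 9540 iMPC barcodes reached this minimum. The MEF matrix lists 6113 barcodes, and how they were selected is not given in the sources used here. The labels give both samples 1 treatment protocol text, and the MEF sample's own label of MEF medium was used. The kept cells held 232728796 UMIs in iMPC and 118069653 in MEF.

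Doublets were kept, and an alternative removed the highest Scrublet scores (scanpy 1.11.5), 699 iMPC and 292 MEF cells, at 0.8% per 1000 cells. Intervals of levels are exact Poisson, of ratios exact conditional and of shares exact binomial (Clopper-Pearson). Shares were taken after thinning without replacement to 5000 UMIs, which left out 284 MEF cells. Python 3.11.15, numpy 2.4.6, scipy 1.17.1 and pandas 2.3.3 were used, and ratios and calls were tested on simulated data. The members, groups and lists were chosen with earlier results of these data known. Other genes of the pathway are named where past 2-fold, as examples in comparisons with many, and some are not reported here, and genes like a member as the 3 highest r of at least 0.2. The values of Igf2, Igfbp1, Igfals, Pappa and Col1a1 outside this rule were added after they were seen.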

Additional observations from a re-analysis of the deposited data

Results flagged for a closer look

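iMPC barcodes of 200 to 600 UMIs form no group of a comparison, and each of the 10 members was found in them above the level of 0.141 CPM that a count of 0 allows. Igfbp5 stood at 280 CPM, Igfbp3 at 162 CPM, Igfbp2 at 111 CPM, Igf2r at 60.2 CPM and Igf1r at 56.6 CPM. Igfbp7 stood at 54.0 CPM, Igf2bp2 at 50.2 CPM, Igfbp4 at 27.2 CPM, Igfbp6 at 12.1 CPM and Igf1 at 5.46 CPM. Relative to the kept iMPC cells these levels ranged from 0.300 times for Igf1r and 0.335 times for Igfbp7 to 0.767 times for Igf1. In barcodes of 1 to 100 UMIs Igfbp7 stood at 158 CPM, 0.979 times its level in cells, so the 2 sets of barcodes differ most for this gene. Igfbp6 and Igfbp4 stood at 1.15 and 1.03 times their level in the kept cells in barcodes of 1 to 100 UMIs.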

How the results depend on the processing

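No paired analysis was possible because each culture was 1 library, and no replicate could be left out. Over 15 alternatives the counts of members past 2-fold stayed within 1.5 times in 93 cases (7 comparisons) and moved in 12, and no ratio past 2-fold changed sign. The iMPC against MEF count stayed within 1.5 times in all of them. Dcn-high against Pax7-positive cells, with 1 member past 2-fold, gave 2 with a minimum of 5000 UMIs, 3 with 16000 UMIs, 5 with doublets removed, 2 with the mean of each cell's CPM, 2 with free RNA subtracted, 5 with stricter groups, 4 with cells of 2 groups left out, 3 with thinned counts and 5 at a fold of 1.5. At that fold the counts were also 5 in place of 3 for Myog-positive against Pax7-positive and 6 in place of 3 for Ckm-positive against Myog-positive cells, by construction. In the latter comparison the split of 1 higher and 2 lower became 0 and 3 once mitochondrial and ribosomal protein genes were taken out of the totals. Ckm-positive against Pax7-positive cells gave 3 members in place of 5 by the median of gene ratios. The other causes were not tested. Igfbp4 between Myog-positive and Pax7-positive cells (-0.03, or 0.11 by the median of gene ratios) and Igf2bp2 between Ckm-positive and Myog-positive cells (-0.14, or 0.06) have no direction, since the sign changed. The same holds for Igfbp6 between Ckm-positive and Pax7-positive cells (0.53, or -0.09 in cells without Mki67 or Top2a UMIs). Igfbp6 between Myog-positive and Pax7-positive cells passed 2-fold with thinned counts (-1.01 against -0.54). Of the single ratios 314 left their counting interval and 596 did not. At 2000 UMIs or without thinning 120 of 120 shares of cells left theirs, where a share falls or rises with depth by construction. The 2 alternatives with cells without Mki67 or Top2a UMIs and with the UMI minimum in MEF too were chosen after seeing the data, as were all those for Pax7-positive against MEF and Ckm-positive against Pax7-positive cells.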

Other observations

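The 4001 iMPC cells in none of the 4 groups (median 18951 UMIs) held each of the 10 members at a level within the range of those groups. Igfbp5 stood at 534 CPM (530 to 539), Igfbp3 at 376 CPM (372 to 380), Igfbp7 at 230 CPM (227 to 234), Igf1r at 215 CPM (212 to 219) and Igfbp2 at 191 CPM (188 to 194). Igf1 stood at 4.92 CPM (4.46 to 5.41) and Igfbp6 at 17.0 CPM (16.1 to 17.9). These cells held Mki67 at 106 CPM and Top2a at 259 CPM, and Dcn at 6.77 CPM.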
